A study of Homo sapiens with 12 samples.

Results

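The genes described here are 10 members of the BCL2 family, the proteins that decide whether a cell's mitochondria release the signals for apoptosis: BCL2, BCL2L1, MCL1, BCL2A1, BAX, BAK1, BCL2L11, BID, PMAIP1 and BBC3. They were chosen by name, and each has 1 probe set in the deposited table that carries its symbol alone, so 10 of 18404 named genes are described and none of the 10 is missing. The arrays measured 2 established Hodgkin lymphoma cell lines, L-1236 and U-HO1, each transduced either with an shRNA against GATA-3 or with a non-functional control shRNA. The 4 groups hold 3 arrays, and all 12 samples share the transduction, 3 days of culture, a sort of 25000 GFP-positive cells and amplification of the RNA before hybridisation. L-1236 grew in RPMI 1640 and U-HO1 in IMDM, so line and medium cannot be told apart. Each line is 1 culture line and not a set of patients. The design text describes each group's samples as independent but not whether cultures or transductions were separate, so the p-values below measure only the spread between these arrays, whose number limits the precision.

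BCL2 family proteins share short BCL2 homology (BH) regions. The anti-apoptotic members, here BCL2, BCL2L1 (BCL-XL), MCL1 and BCL2A1 (A1, BFL-1), bind and restrain the effectors BAX and BAK1, which otherwise form pores in the outer mitochondrial membrane. The BH3-only members BCL2L11 (BIM), BID, PMAIP1 (NOXA) and BBC3 (PUMA) sense stress and either occupy the anti-apoptotic proteins or activate the effectors. In Hodgkin cells, constitutive NF-kB and JAK-STAT signalling is known to raise anti-apoptotic members such as BCL2L1 and BCL2A1. Several members make splice forms of opposite or different activity, such as the long and short forms of MCL1 and BCL2L1, and 1 probe set per gene does not separate them.

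Values are the deposited levels, which lie on a log scale read here as log2. Array medians ran from 6.96 to 7.09, and arrays correlated across probe sets at 0.986 to 0.995 within a line and 0.939 to 0.951 between the lines. GATA3, the target of the shRNA, ran from 9.95 to 10.69 under the control label and from 9.998 to 10.80 under the knockdown label in L-1236, and from 10.24 to 11.24 and 10.12 to 11.07 in U-HO1, so its levels overlapped between the labels in both lines. Its log2 difference, knockdown label minus control, was 0.035 in L-1236 (95% interval -0.64 to 0.71, limma adjusted p = 0.992) and -0.32 in U-HO1 (95% interval -1.003 to 0.36, adjusted p = 0.99997). A lower GATA3 level under the knockdown label was thus not detected in either line, and each comparison of the labels below carries that limit. Arrays are therefore called by their labels throughout. Over the 6 arrays of a line, the Hodgkin marker TNFRSF8 (CD30) had a mean of 9.63 in L-1236 and 10.25 in U-HO1, and IRF4 of 11.46 and 11.27. Of the 8 Hodgkin markers listed, 6 differed between the lines on control arrays, 3 higher and 3 lower in U-HO1, beside 32.0% of named genes. Means over both labels, in L-1236 and U-HO1, were 7.06 and 10.15 for TRAF1, 9.69 and 7.74 for CD40 and 9.98 and 8.09 for CD274. The B-cell antigen gene MS4A1 (CD20) read 5.72 and 5.79. Of 5 B-cell markers measured, 2 were lower in U-HO1 on control arrays, PAX5 (log2 difference -1.97) and POU2AF1 (-1.31), while CD79A (-0.13) and CD79B (-0.095) did not pass. Beside these, 12.5% of probe sets were called lower and 32.0% of named genes were called in either direction. The part of these marker differences in the results between the lines was not tested. Lists of T-cell (6 of 6 genes measured), monocyte (5 of 5) and fibroblast and epithelial markers (5 of 5) had mean levels of 6.19 to 6.35, 6.29 to 6.40 and 6.57 to 6.77 on the L-1236 arrays and 6.19 to 6.39, 6.23 to 6.41 and 6.62 to 6.69 on the U-HO1 arrays.

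The start regions of 3 members are shown to set genes on either side of the contrast between the lines beside 1 that was not called: BCL2L11 had the largest difference and was lower in U-HO1, BCL2A1 was the 1 called higher there, and BAX did not pass the test. The sequences are RefSeq's on GRCh38.p14, from 250 bases before to 50 bases after the annotated start, written along the gene's strand. BCL2L11 lies at chr2:111120664-111120963 on the plus strand, with the FOXO motif GTAAACA in capitals. BCL2A1 lies at chr15:79971147-79971446 on the minus strand, with capitals for an interferon-response match (GAAA, any 2 bases, then GAAA, on either strand) and for TATAAA. BAX lies at chr19:48954625-48954924 on the plus strand, with E-boxes (CACGTG) in capitals.
BCL2L11: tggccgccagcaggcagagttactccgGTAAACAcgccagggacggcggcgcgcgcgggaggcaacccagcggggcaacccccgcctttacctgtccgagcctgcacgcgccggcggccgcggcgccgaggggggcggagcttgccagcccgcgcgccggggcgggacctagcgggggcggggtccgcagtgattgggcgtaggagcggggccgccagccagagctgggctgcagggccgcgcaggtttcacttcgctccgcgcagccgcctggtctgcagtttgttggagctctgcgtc
BCL2A1: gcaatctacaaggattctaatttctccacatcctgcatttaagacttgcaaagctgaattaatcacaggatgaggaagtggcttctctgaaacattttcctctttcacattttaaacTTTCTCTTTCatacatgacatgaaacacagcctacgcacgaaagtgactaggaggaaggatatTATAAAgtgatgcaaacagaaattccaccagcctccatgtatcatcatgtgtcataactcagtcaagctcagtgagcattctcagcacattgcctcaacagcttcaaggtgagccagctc
BAX: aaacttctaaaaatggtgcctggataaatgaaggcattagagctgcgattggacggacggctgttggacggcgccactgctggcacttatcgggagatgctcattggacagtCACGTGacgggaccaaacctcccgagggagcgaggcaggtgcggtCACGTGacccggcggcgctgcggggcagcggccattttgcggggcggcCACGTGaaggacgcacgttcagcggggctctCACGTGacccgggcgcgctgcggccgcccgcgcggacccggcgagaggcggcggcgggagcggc

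The BCL2L11 region is 74.7% G and C and holds 1 FOXO match, 223 bases before the start, a motif found in 3.42% of all 35116 RefSeq start regions of this length. BIM is a textbook target of FOXO factors. The BCL2A1 region is 41.0% G and C. It holds 1 interferon-response match 133 bases before the start (in 3.57% of all regions) and 1 TATAAA 70 bases before it (11.5%). BAX holds 4 E-boxes, a motif found at least once in 7.26% of all regions. Regions of 9 of the 10 members were in the table, 14 regions in all, since some genes have several starts. Both strands were searched, and no 2 printed matches overlap. The interferon-response letters occurred in 2 members, BCL2A1 and BBC3, E-boxes in 3 (BAX, BBC3 and BID), the GC box GGGCGG in 6 (45.0% of all regions), TATAAA in 2 (BCL2A1 and BCL2L1), the AP-1 motif TGANTCA in 1 (BBC3, 7.71%) and the STAT motif TTCNNNGAA in 1 (BCL2A1, 7.66%). The GATA motif (A or T, then GATA, then A or G, in 25.0% of all regions) and the NF-kB letters (GGG, any 2 bases, then TTTCC, 1.91%) were in none of the 14. These matches describe letters in a short window, and binding was not measured.

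The first comparison was between the lines on the arrays labelled control. Of the 10 members, 7 differed at an adjusted p under 0.05 (limma with Benjamini-Hochberg adjustment over all 32321 probe sets), against 25.8% of all probe sets and 32.0% of named genes. In U-HO1 6 members were lower, namely BCL2L11, BID, MCL1, BCL2, BAK1 and BCL2L1, where 12.5% of probe sets were called lower, and 1 was higher, BCL2A1, where 13.3% were called higher. The median log2 difference over the members was -0.42, beside 0.00063 over all probe sets. The same 7 members did not overlap between the 3 arrays of each line, beside 34.7% of all probe sets. The call was lost for some members when single arrays were left out, and without the U-HO1 control replicate 2 only 4 members were called. BCL2, BCL2A1, BCL2L11 and BID were called under each of the 20 alternatives tried.

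**Figure D1:**
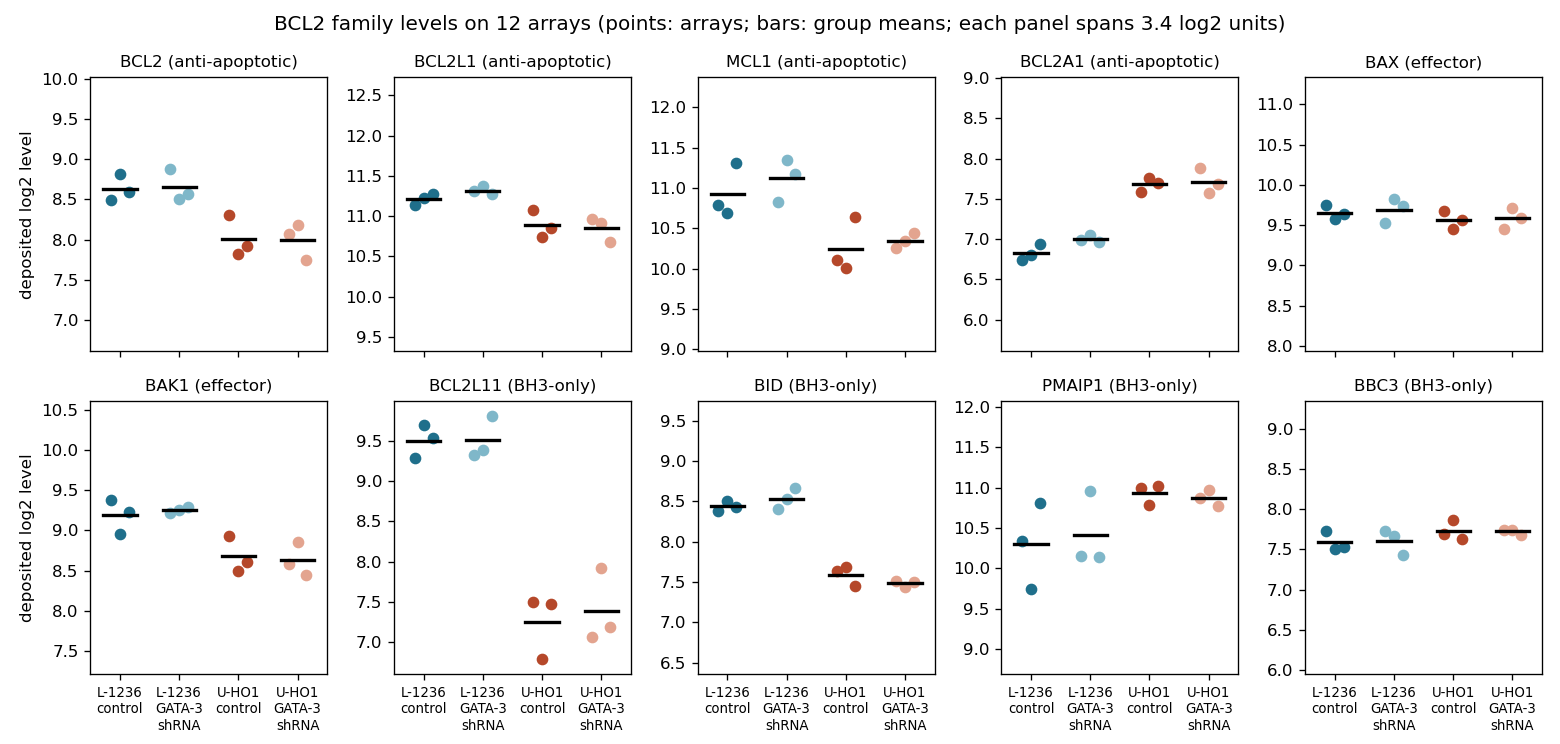
Deposited log2 level of each BCL2 family gene (vertical axis) on the 12 arrays, by line and label (horizontal axis); points are arrays, bars are means of 3 arrays, and every panel spans the same 3.4 log2 units. BCL2L11 and BID sit lower and BCL2A1 higher on all 6 U-HO1 arrays than on all 6 L-1236 arrays, and PMAIP1 spreads from 9.74 to 10.95 within L-1236.

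Among the anti-apoptotic genes, BCL2 (probe set 8023646), the founding inhibitor of the family, read 8.49, 8.82 and 8.60 on the L-1236 arrays labelled control and 8.30, 7.82 and 7.92 on those of U-HO1. Every U-HO1 array was below every L-1236 array. The U-HO1 mean of 8.01 ± 0.26 lay 1.54-fold below the L-1236 mean of 8.64 ± 0.16 (SD, n = 3; log2 difference -0.62, SE 0.15, limma adjusted p = 0.00973).

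BCL2L1 (probe set 8065569), which encodes the BCL-XL that Hodgkin cells are known to express, read 11.14, 11.23 and 11.27 in L-1236 and 11.07, 10.75 and 10.86 in U-HO1. The groups parted by a narrow margin between the lowest L-1236 and the highest U-HO1 array. It was 1.25-fold lower in U-HO1 (log2 difference -0.32, SE 0.098, limma adjusted p = 0.0278). This call was lost without control replicate 2 or 3 of either line, where the adjusted p reached 0.103, and also after centring the arrays on their medians, in a fit of the 6 arrays alone and with array quality weights.

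MCL1 (probe set 7919751), a short-lived inhibitor that holds BAK1 in check and is itself bound by NOXA, read 10.79, 10.69 and 11.30 in L-1236 and 10.10, 10.00 and 10.64 in U-HO1. In both lines the array labelled control replicate 3 was the highest of its group, and the U-HO1 replicate 3 came close to the lowest L-1236 array. MCL1 was 1.60-fold lower in U-HO1 (log2 difference -0.68, SE 0.19, limma adjusted p = 0.0209), a call lost without L-1236 control replicate 3 or U-HO1 control replicate 1 or 2, where the adjusted p reached 0.0882, and in a fit of the 6 arrays alone.

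BCL2A1 (probe set 7990818), an NF-kB-induced inhibitor of lymphoid cells, went the other way. It read 6.74, 6.81 and 6.94 in L-1236 and 7.58, 7.76 and 7.70 in U-HO1, with no overlap. The U-HO1 mean of 7.68 ± 0.09 lay 1.80-fold above the L-1236 mean of 6.83 ± 0.10 (log2 difference 0.85, SE 0.089, limma adjusted p = 2.07e-05). Both levels lie near the array medians, and as background is not given on these arrays, the fold may be shortened where the lower level is dim.

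Of the effectors, BAK1 differed and BAX did not pass the test. BAK1 (probe set 8125766), which sits in the outer mitochondrial membrane, read 9.37, 8.96 and 9.23 in L-1236 and 8.93, 8.49 and 8.61 in U-HO1. It was 1.42-fold lower in U-HO1 (log2 difference -0.51, SE 0.14, limma adjusted p = 0.0158). The call was lost without control replicate 1 or 3 of L-1236 or 2 or 3 of U-HO1 (adjusted p up to 0.0694) and with array quality weights. BAX (probe set 8030158), which moves to the membrane on activation, read 9.75, 9.58 and 9.64 in L-1236 and 9.68, 9.46 and 9.57 in U-HO1, and the groups overlapped. Its log2 difference was -0.084 with a 95% interval from -0.30 to 0.13 (limma adjusted p = 0.634), an interval that leaves out a 1.5-fold change in either direction.

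Among the BH3-only genes, BCL2L11 (probe set 8044375), whose product BIM can engage all anti-apoptotic members, had the largest difference of the 10. It read 9.28, 9.69 and 9.53 in L-1236 and 7.50, 6.79 and 7.48 in U-HO1. The lines were apart by more than the whole spread within either. Its U-HO1 mean of 7.26 ± 0.40 lay 4.75-fold below the 9.50 ± 0.21 of L-1236 (SD, n = 3; log2 difference -2.25, SE 0.24, 95% interval -2.77 to -1.72, limma adjusted p = 2.41e-05). It was the 1 member called with a fold of at least 2, beside 4.99% of all probe sets. The U-HO1 level lies near the array medians, so this fold too is a ratio of measured values that depends on the background.

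BID (probe set 8074261), which links death receptors to mitochondria after cleavage by caspase 8, read 8.38, 8.51 and 8.43 in L-1236 and 7.63, 7.69 and 7.45 in U-HO1. The mean was 7.59 ± 0.13 in U-HO1, 1.81-fold below the 8.44 ± 0.06 of L-1236 (log2 difference -0.85, SE 0.086, limma adjusted p = 1.46e-05). Its spread within groups, an SD of 0.099, was the smallest of the 10 members, and its adjusted p was at most 0.000104 with any 1 array left out.

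PMAIP1 (probe set 8021470), whose product NOXA binds MCL1 and is induced by p53 and by interferon signalling, read 10.34, 9.74 and 10.81 in L-1236 and 11.00, 10.79 and 11.02 in U-HO1. The highest L-1236 array reached above the lowest U-HO1 array. The log2 difference was 0.64 (SE 0.25), in U-HO1 above L-1236, and did not pass the test (limma adjusted p = 0.0857). It passed without L-1236 control replicate 3, or without L-1236 knockdown replicate 2, which enters through the shared estimate of spread. BBC3 (probe set 8037872), the p53 target PUMA, read 7.73, 7.51 and 7.53 in L-1236 and 7.70, 7.86 and 7.62 in U-HO1, a log2 difference of 0.14 (95% interval -0.071 to 0.34, limma adjusted p = 0.371) with overlapping groups.

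**Figure D2:**
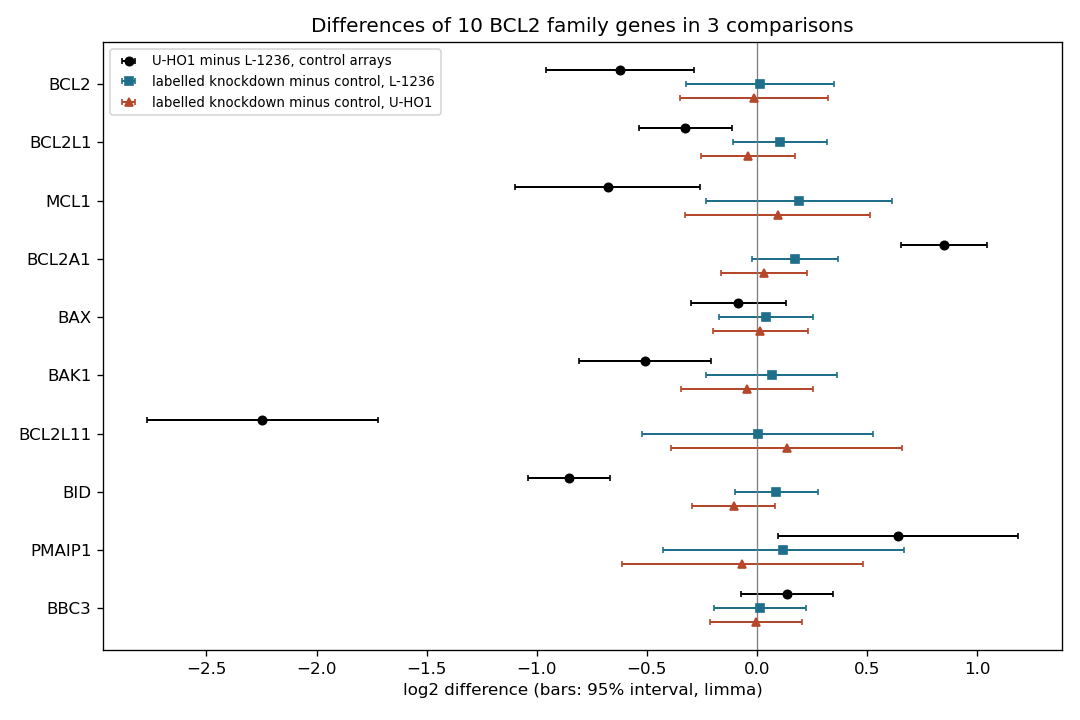
Log2 differences (horizontal axis, points) with 95% intervals from limma (bars) for the 10 genes (vertical axis): U-HO1 minus L-1236 on control arrays (circles), and labelled knockdown minus control in L-1236 (squares) and U-HO1 (triangles). Between the lines the differences run from -2.25 for BCL2L11 to 0.85 for BCL2A1, while every knockdown interval includes 0.

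The lines were then compared over both labels, with 6 arrays each, which adds the arrays labelled knockdown. At an adjusted p under 0.05, 8 members differed (35.1% of all probe sets, 41.7% of named genes), 6 lower and 2 higher in U-HO1 (17.1% and 18.0% of probe sets). The 6 lower and BCL2A1 did not overlap between the 6 arrays of each line, 7 members in all, beside 23.3% of all probe sets. Each had an exact two-sided permutation p of 0.00216, the smallest that 6 against 6 arrays can give. That p follows from the lack of overlap and adds nothing to it. BCL2L11 ran from 9.28 to 9.81 with a median of 9.46 in L-1236 and from 6.79 to 7.92 with a median of 7.33 in U-HO1, a log2 difference of -2.18 (SE 0.17, limma adjusted p = 7.33e-07). BID ran from 8.38 to 8.66 with a median of 8.47 and from 7.44 to 7.69 with a median of 7.51, a log2 difference of -0.95 (SE 0.061, adjusted p = 1.24e-07). BCL2A1 ran from 6.74 to 7.05 with a median of 6.95 and from 7.58 to 7.88 with a median of 7.69, a log2 difference of 0.78 (SE 0.063, adjusted p = 1.01e-06). These 7 calls were kept under every alternative run.

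PMAIP1 was the second gene higher in U-HO1 in this comparison, at 9.74 to 10.95 with a median of 10.24 in L-1236 and 10.77 to 11.02 with a median of 10.92 in U-HO1. Its log2 difference was 0.55 (SE 0.18, limma adjusted p = 0.0296, exact two-sided permutation p = 0.0238). The call was lost without any 1 of 7 arrays, which were L-1236 control replicate 2 and knockdown replicates 1 and 3 and U-HO1 control replicates 1 and 3 and knockdown replicates 1 and 2, where the adjusted p reached 0.0726, and also after quantile normalization and with array quality weights. BAX (log2 difference -0.096, 95% interval -0.25 to 0.056) and BBC3 (0.13, 95% interval -0.020 to 0.27) overlapped and were not called (limma adjusted p = 0.347 and 0.184).

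The study asked which genes depend on GATA-3 in these lines. In L-1236 no BCL2 family gene passed between arrays labelled knockdown and control, by limma at an adjusted p under 0.05 or by the thresholds the submitters chose (a 1.5-fold change and a 25% false discovery rate), and 0 had an unadjusted p under 0.05. Among all probe sets 0% passed either rule and 4.77% had an unadjusted p under 0.05. The log2 differences ran from 0.0043 for BCL2L11 to 0.19 for MCL1 with a median of 0.078, beside -0.0091 over all probe sets. All 10 were positive as deposited, but 6 were after quantile normalization, and 7 to 9 were with single L-1236 arrays left out. Other lists leaned too: 12 of 14 apoptosome and mitochondrial release genes and 26 of 30 interferon response genes were positive. Of further family genes 7 of 13 were, and of T-cell markers 1 of 6. For 8 members the 95% interval left out a 1.5-fold change in either direction, the exceptions being MCL1 (-0.23 to 0.61) and PMAIP1 (-0.43 to 0.67).

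The smallest p in L-1236 belonged to BCL2A1. Its control arrays read 6.74, 6.81 and 6.94, and its arrays labelled knockdown 6.99, 7.05 and 6.97. The groups did not overlap, as for 10.7% of all probe sets, and the log2 difference was 0.17 (SE 0.089, limma adjusted p = 0.925, exact two-sided permutation p = 0.1, the smallest that 3 against 3 can give). MCL1 read 10.83, 11.35 and 11.17 on the arrays labelled knockdown, which overlapped with the control arrays. BCL2L11 read 9.32, 9.39 and 9.81, and BID 8.40, 8.53 and 8.66, again overlapping with control. PMAIP1 read 10.15, 10.95 and 10.14 and BCL2 8.88, 8.50 and 8.57 under the knockdown label, with replicate 2 the high array of PMAIP1 and replicate 1 that of BCL2. BCL2L1 at 11.31, 11.38 and 11.27 and BAK1 at 9.21, 9.25 and 9.30 had narrower ranges and reached into those of the control arrays.

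In U-HO1 0 members passed by limma at either threshold, as did 0% of all probe sets, and 0 had an unadjusted p under 0.05, beside 1.05% of all probe sets. No member's groups parted without overlap, 0 of 10 beside 3.79% of all probe sets. The log2 differences ran from -0.10 for BID (SE 0.086) to 0.14 for BCL2L11 (SE 0.24), with a median of -0.0078 and 4 of 10 positive. BID read 7.63, 7.69 and 7.45 on control arrays and 7.51, 7.44 and 7.50 on those labelled knockdown. BCL2L11 read 7.07, 7.92 and 7.19 on arrays labelled knockdown, a range that takes in 2 of the 3 control arrays. Among the inhibitors, BCL2 read 8.07, 8.18 and 7.75, MCL1 10.25, 10.34 and 10.44, and BCL2A1 7.88, 7.58 and 7.68 under the knockdown label, each overlapping with control. For 8 members the interval left out a 1.5-fold change, the exceptions being BCL2L11 (-0.39 to 0.66) and PMAIP1 (-0.61 to 0.48).

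The effect of the label did not differ detectably between the lines for any member (limma, 0 of 10 called, beside 0% of all probe sets, smallest adjusted p = 0.9997, 0 at an unadjusted p under 0.05, beside 2.46% of all probe sets). Taken as the U-HO1 effect minus that of L-1236, the difference was largest for BID, at -0.19 (95% interval -0.46 to 0.071). For PMAIP1 it was -0.19 with an interval from -0.96 to 0.59, and for BCL2L11 0.13 from -0.61 to 0.87, so differences of over 1.5-fold between the effects were within the error for these genes and for MCL1.

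Members differed in how steady they were within groups. The SD within groups, pooled over the 4 groups, was 0.36 for PMAIP1, 0.35 for BCL2L11, 0.28 for MCL1 and 0.21 for BCL2, above 98.2%, 97.7%, 93.5% and 84.6% of all probe sets. For BAX, BCL2L1, BBC3, BCL2A1 and BID it was 0.12, 0.12, 0.12, 0.11 and 0.099, beside a median of 0.12 over all probe sets, and for BAK1 it was 0.19. The pooled value hides a gap between the lines for PMAIP1, whose SD was 0.54 and 0.47 in the control and knockdown groups of L-1236 and 0.13 and 0.098 in those of U-HO1. For BCL2L11 the SDs were 0.21 and 0.26 in L-1236 and 0.40 and 0.46 in U-HO1. For each gene the fit shares 1 spread over the groups, and the intervals above are widest for PMAIP1 and BCL2L11, the members with the largest pooled SDs.

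Within L-1236, PMAIP1 and MCL1 were each highest on the same pair of arrays, control replicate 3 (10.81 and 11.30) and knockdown replicate 2 (10.95 and 11.35). On those arrays 30 interferon response genes had their highest mean levels in this line, 9.78 and 9.59, against 7.71 to 8.98 on the other 4. GATA3 was lowest on the same pair, at 9.95 and 9.998. The line-wide relations were put to an exact permutation test over the 6 arrays of a line, for 10 members, 2 measures and 2 lines, 40 relations in all, with a smallest possible p of 0.00278. None passed Benjamini-Hochberg adjustment (smallest adjusted p = 0.302 for Pearson's r and 0.514 for Spearman's rho), and 5 had an unadjusted Pearson p under 0.05. A single relation at the smallest possible p could not have passed adjustment over 40, so this does not show that relations are absent.

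In L-1236, PMAIP1 had r = 0.84 (permutation p = 0.0528) and rho = 0.77 (permutation p = 0.103) with the interferon mean, and r = -0.84 (permutation p = 0.0444) and rho = -0.66 (permutation p = 0.175) with GATA3, over 6 arrays. Without the 2 arrays farthest from the median of the measure, r was 0.66 and -0.91. For the interferon mean these were control replicates 3 and 2, and for GATA3 knockdown replicate 1 and control replicate 2. Knockdown replicate 2 thus stayed in for both measures and control replicate 3 for GATA3. This check therefore does not show the relations of PMAIP1 or MCL1 without the pair of arrays named above. MCL1 had r = 0.80 (permutation p = 0.106) and rho = 0.89 (permutation p = 0.0333) with the interferon mean. With GATA3, MCL1 had r = -0.85 (permutation p = 0.0361) and rho = -0.77 (permutation p = 0.103). Without 2 arrays, r of MCL1 was 0.62 and -0.84. BCL2 had the largest r with GATA3 in L-1236, 0.87, but -0.40 without 2 arrays. In U-HO1, r with GATA3 was -0.03 for PMAIP1 (rho = 0.20) and -0.76 for MCL1 (rho = -0.60). There r with the interferon mean was 0.54 for PMAIP1 and -0.08 for MCL1. In U-HO1 the interferon mean moved only from 8.07 to 8.32. There BAX had the smallest p of the 40, with r = 0.91 (permutation p = 0.0278) with the interferon mean and rho = 0.83 (permutation p = 0.0583), and r was 0.61 without 2 arrays. For BCL2L11 and BCL2A1 in U-HO1, r with the interferon mean was 0.83 (permutation p = 0.0306) and -0.79 (permutation p = 0.0472). Their rho was 0.83 and -0.83 (permutation p = 0.0583 each). Without 2 arrays r was 0.55 and -0.18, so the BCL2A1 relation in U-HO1 rests on those 2 arrays. In L-1236, where the interferon mean moved further, BCL2A1 had the opposite sign, with r = 0.79 (permutation p = 0.0694) and 0.88 without 2 arrays. BAX and BCL2L11 had r of 0.12 and -0.26 with it in L-1236. The adjusted p of each Pearson value given here with a permutation p was 0.302.

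**Figure D3:**
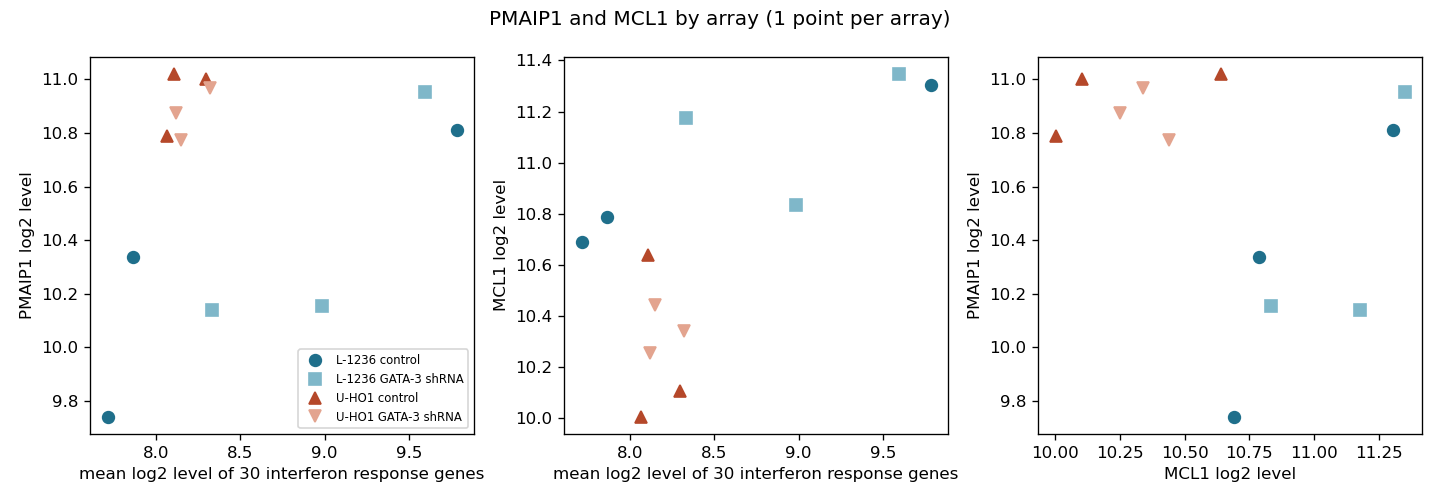
Log2 levels by array, 1 point each, for PMAIP1 (left) and MCL1 (middle) against the mean of 30 interferon response genes, and PMAIP1 against MCL1 (right); colours and symbols give line and label. The L-1236 arrays with interferon means of 9.78 and 9.59 have the highest PMAIP1 and MCL1 levels of that line, and the U-HO1 arrays cluster at interferon means of 8.07 to 8.32.

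The part of the interferon level in the difference of PMAIP1 between the lines was not tested. On control arrays that difference was 0.90 without L-1236 control replicate 3 and 0.36 without L-1236 control replicate 2, the arrays with the highest and lowest interferon means of the line. They also had the highest and lowest PMAIP1 levels of their group, 10.81 and 9.74. Leaving them out had to raise and lower the difference whatever their interferon level. For the 3 members with the largest spread, the genes with the most similar pattern over the 12 arrays, after the mean of each line was subtracted, were PRKCE (r = 0.95), the antiviral helicase DHX58 (0.94) and the NF-kB inhibitor NFKBIE (0.93) for PMAIP1. They were CTDSP2 (0.99), AVL9 (0.95) and NUMB (0.95) for MCL1, and C10orf131 (0.92), SNORD30 (0.92) and EIF1AD (0.92) for BCL2L11. These are the highest of 18404 genes over few arrays and describe likeness only.

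Of 13 further measured genes of the family and its surroundings, 4 differed between the lines on control arrays, 3 higher and 1 lower in U-HO1. That count is near the 32.0% of named genes called (25.8% of probe sets). BCL2L10, an anti-apoptotic member also called BCL-B, read 6.62, 6.66 and 6.45 in L-1236 and 8.71, 8.98 and 9.26 in U-HO1. It was 5.29-fold higher in U-HO1 (log2 difference 2.40, SE 0.13, limma adjusted p = 7.53e-08), and its arrays labelled knockdown stayed apart too, at 6.62 to 6.87 and 9.03 to 9.24. All its L-1236 levels lie below the array medians, so this fold depends on the background, which is not given. The BH3-only gene BMF, at 7.63 ± 0.17 and 8.24 ± 0.04, was 1.53-fold higher and BNIP3L, a mitophagy receptor, 1.58-fold higher (adjusted p = 0.00379 and 0.0305). BCL2L12 was 1.40-fold lower (adjusted p = 0.000715). The BH3-only genes BAD, BIK and HRK had log2 differences of -0.068, -0.044 and -0.042, with intervals that left out a 1.5-fold change. As background is not given, a narrow interval does not show that these genes were expressed, and dim probe sets could hide a difference.

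**Figure D4:**
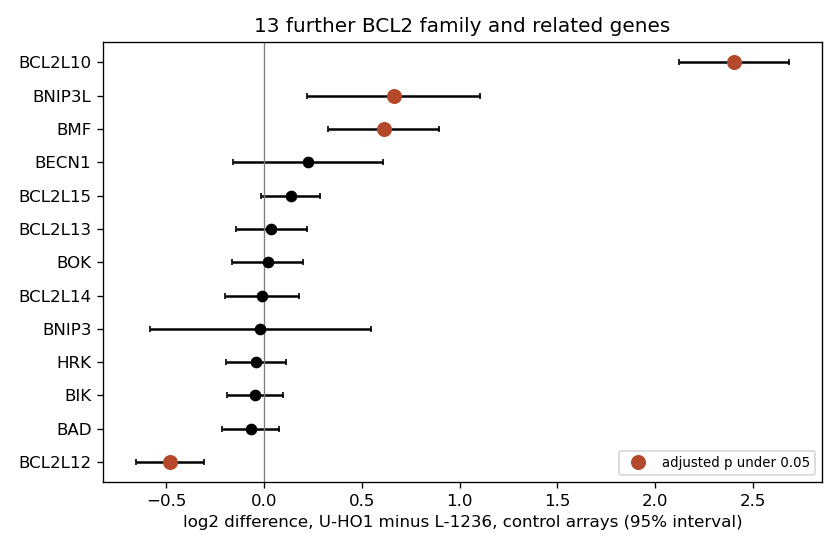
Log2 difference between U-HO1 and L-1236 on control arrays (horizontal axis) with 95% intervals for 13 further family and related genes (vertical axis); filled colour marks an adjusted p under 0.05. BCL2L10 stands at 2.40, and the other 3 called genes lie between -0.48 and 0.66.

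Downstream of the family, 4 of 14 measured genes of the apoptosome and of mitochondrial release were higher in U-HO1 and 0 lower on control arrays, beside 32.0% of named genes called in either direction. They were VDAC2, an outer-membrane channel that holds BAK1 (log2 difference 0.89, SE 0.13), OPA1, which shapes the cristae (0.81, SE 0.14), DIABLO, which neutralises inhibitors of apoptosis proteins (0.37, SE 0.08), and the protease HTRA2 (0.31, SE 0.09), with limma adjusted p = 0.000307, 0.00104, 0.00591 and 0.018. Of 19 measured transcription factors known to control family genes 7 were higher and 3 lower. Of all probe sets 13.3% were called higher and 12.5% lower, and of named genes 32.0% were called in either direction. The p53 relative TP73 was 2.29-fold lower in U-HO1 and STAT6 2.05-fold lower, while STAT3 was 1.91-fold and STAT5A 1.56-fold higher (adjusted p = 0.000259, 0.000979, 0.000419 and 0.00283). Of 14 measured genes for turnover, phosphorylation or cleavage of family proteins 3 were higher and 2 lower, near the 32.0% of named genes called, among them the BIM kinase MAPK8 at 2.31-fold higher, CDK1 at 2.73-fold higher and the MCL1-directed ubiquitin ligase MARCHF5 at 1.53-fold higher, with the cullin CUL5 1.78-fold lower (adjusted p = 1.04e-05, 0.00017, 0.000978 and 0.000116). By limma 0 genes of these 4 lists passed between the labels in either line, as did 0% of all probe sets. At an unadjusted p under 0.05 there were 1 in the first list and 1 in the apoptosome list in L-1236, beside 4.77% of all probe sets, and 0 in the others and in U-HO1, beside 1.05%.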

How the data were processed

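Expression was measured on 12 one-colour Affymetrix whole-transcript arrays, 3 for each line and shRNA label, and groups follow the labels. The authors deposited 1 table of already normalized values for 32321 probe sets, on a log scale read as log2 because all values lie between 3.86 and 13.99. The submitters' processing notes name R 2.8.1. Background correction, normalization, probe summary and log base were not given in the sources used here, so fold sizes rest on that reading.

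A single gene symbol is carried by 19158 probe sets, for 18404 genes, and the brightest stands for its gene. A linear model with 1 mean for each group was fitted to the 12 arrays with no filter (limma 3.58.1 in R 4.3.3, 8 residual degrees of freedom), and p-values were adjusted over all probe sets. Permutation tests used scipy 1.17.1. The fit was also run on simulated data with normal noise and the same spread in every group for each probe set. That is simpler than the real arrays, where the spread of PMAIP1 differed between the lines, and no result here rests on it. The members, lists and tests were chosen with earlier results of these data known. The genes named by rule are the 10 members, GATA3, up to 4 genes of each list with the smallest p between the lines, and the 3 genes most like each of the 3 members with the largest spread. Other genes named, such as markers and BAD, BIK and HRK, were chosen after their values were seen. The settings varied were the replicate number as a block, quantile normalization, centring of array medians, a filter on dim probe sets, testing of a single probe set for each gene, a fit of the compared groups alone, a trended robust prior, array quality weights (statmod 1.5.0), and each array left out.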

Additional observations from a re-analysis of the deposited data

How the results depend on the processing

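Counts of members called between the lines on control arrays were 7 with the replicate block, with quantile normalization, without the dimmest probe sets, with 1 probe set per gene and with a trended robust prior, 6 after centring, and 5 with only the arrays compared or with array quality weights. With single arrays left out they ran from 4 to 8, and over both labels, where quantile normalization and array quality weights gave 7, from 7 to 8. The counts for the knockdown comparisons and their difference were 0 under every alternative run for them. For the relations to GATA3 and the interferon list, rerun with single arrays left out, the count was also 0. With so few arrays a single relation at the smallest possible p cannot pass adjustment over 40, and leaving an array out raises that smallest p. The count for the relations is therefore no sign of stability. Same-numbered arrays of a line deviated together at correlations from -0.40 to 0.32, so the numbers are not taken as pairs, and the replicate block gave 7 and 8 members between the lines, as without it. No member has a second probe set of its own, so that alternative gave no value. An exact test of 3 against 3 arrays cannot pass 0.05. Among the values of single members recomputed, 983 kept their side of the threshold, 25 lost a call and 2 gained one, and no called value changed sign. The 983 include the label comparisons, where no member was called to begin with. On control arrays the call was lost for BCL2L1 under 7, for BAK1 under 5 and for MCL1 under 4 of 20 alternatives. Over both labels it was lost for PMAIP1 under 9 of 21. In that comparison, and for the difference of the label effects, the fit of the compared groups alone repeats the main fit and could change no call. Both gains were PMAIP1 on control arrays, without L-1236 control replicate 3 or knockdown replicate 2. Background is not given, which limits folds of dim probe sets.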
